A study of Mus musculus with 6 samples.

Results

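Most of the genes described here encode proteins that take part in cutting introns out of messenger RNA precursors and joining the exons. Others encode the heterogeneous nuclear ribonucleoproteins (hnRNPs) that coat those precursors, and 10 Rbm genes were not listed here as splicing genes. Members were taken by name, as every gene whose symbol begins with Srsf, Sf3a, Sf3b, Hnrnp, Snrp, Prpf, Rbm or U2af and that has a probe set naming it and no other gene. This gave 83 of the 12393 genes on the array. A gene with several probe sets is represented by its brightest, taken as the highest mean of the 6 arrays. By family there were 9 Srsf, 9 Sf3a or Sf3b, 3 U2af, 8 Snrp, 10 Prpf, 18 Hnrnp and 26 Rbm genes. A further 9 symbols of these families were found only on probe sets that name several genes and were not analysed here one by one.

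The RNA came from CD11c+ cells, selected with magnetic beads from spleens of untreated mice of 8 weeks on the C57BL/6J background. There were 3 arrays from wild-type mice (WT) and 3 from mice with an Atg16L1 hypomorphic allele, which lowers the function of a gene needed for autophagy. How that allele was made and in which cells it acts is not given in the labels. Nothing in the labels ties each array to a separate mouse. The p-values therefore reflect only the spread between these samples, which may be technical. Values are deposited log2 signals, and the number of arrays limits their precision. The design text names Affymetrix MOE430A arrays for all, but the title of wild-type replicate 3 names Mouse430_2 where the other 5 name Mouse430A_2, and whether its array was of another design is not given. The title of wild-type replicate 1 starts its array name with another number than the other 5, and what that number stands for is not given either. Without wild-type replicate 3, 13 members fell and 4 rose in the test described further on, and without wild-type replicate 1, 14 fell and 3 rose, beside 17 and 3 on all arrays.

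In most introns the U1 small nuclear ribonucleoprotein (snRNP) recognises the 5′ splice site, and U2AF binds the polypyrimidine tract and 3′ splice site. The U2 snRNP with its SF3a and SF3b subcomplexes settles on the branch point. The tri-snRNP then joins and the spliceosome is remodelled into its catalytic form, in which PRPF proteins take part. SR proteins and hnRNPs, which often act against each other, decide which exons are kept, and many of these genes limit their own expression through exons or introns whose inclusion sends the transcript to decay.

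Atg16l1, the targeted gene, had signals of 7.05, 7.11 and 7.04 on the wild-type and 6.13, 5.84 and 6.11 on the hypomorph arrays. The log2 difference was -1.04 (SE 0.097, limma adjusted p = 0.00163). Array medians over all genes lay between 6.20 and 6.26. Of 17 dendritic cell markers 3 rose and 3 fell, and their mean level ran from 9.85 to 9.96 in wild type and 9.90 to 10.02 in the hypomorph. Sirpa, Ccr7 and Xcr1 rose (0.96, 1.40 and 0.46 on the log2 scale), and Ciita, Zbtb46 and Itgax fell (-0.93, -0.63 and -0.37). Itgax, which encodes the CD11c used to select the cells, was at 10.20 to 10.45 against 9.87 to 10.01 (limma adjusted p = 0.0341), a call lost without wild-type replicate 1 or 3 or any 1 hypomorph array. The arrays also held other signals that differed by genotype. Poly-A spike-ins are RNAs added to each sample, and the mean of their 24 probe sets ran from 8.95 to 9.96 in wild type and 7.58 to 7.90 in the hypomorph. Hybridization controls, which are added just before the array step, ran from 11.08 to 11.64 in wild type and 10.29 to 10.40 in the hypomorph. The 18S ribosomal RNA probe sets ran from 9.30 to 9.67 in wild type and 8.71 to 8.83 in the hypomorph. The beta-actin 3′ minus 5′ difference, a measure of RNA quality and labelling, ran from 0.94 to 1.02 in wild type and 0.69 to 0.77 in the hypomorph. Of 20 splenic macrophage markers 19 rose, and their mean level ran from 8.58 to 9.22 in wild type and 10.57 to 10.66 in the hypomorph. Of 9 B cell markers 6 fell (mean 8.88 to 9.12 against 8.19 to 8.61), and of 12 heat shock genes 10 fell (mean 9.98 to 11.06, against at most 9.37 in the hypomorph). Of the other cell types, 1 of 7 T cell and 1 of 4 erythroid markers rose. Of 8 neutrophil markers 2 rose and 1 fell, and of 7 plasmacytoid dendritic cell markers 2 rose and 1 fell. Of 7 NK cell markers 0 rose and 0 fell by limma (0 and 1 at an unadjusted p under 0.05). The spike-in means of the genotypes did not overlap, so a fit with that signal as a covariate can hardly tell genotype and spike-in signal apart. The part of these signals in the results below was not tested.

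To show the regulatory sequence of the members on which the results turn, the 250 bases before the most upstream annotated start are printed for 5 genes, chosen after their values were seen. Sf3b1, Srsf6 and Rbm5 were the fallen members of smallest p, Hnrnpk rose on 3 of its 4 probe sets, and Rbm39 had probe sets that moved in opposite directions. The sequences are from RefSeq, build GRCm38.p6, in the direction of the gene. Capitals mark the letters of the ETS core CCGGAA, the GC box GGGCGG, the pentamer of the CCAAT box, the YY1 core ATGGCG, the heat shock element GAANNTTC, the CRE core TGACG and the TATA box TATAAA on either strand, and no matches overlap in these 5 sequences.
Sf3b1, chr1:55027479-55027728, minus strand: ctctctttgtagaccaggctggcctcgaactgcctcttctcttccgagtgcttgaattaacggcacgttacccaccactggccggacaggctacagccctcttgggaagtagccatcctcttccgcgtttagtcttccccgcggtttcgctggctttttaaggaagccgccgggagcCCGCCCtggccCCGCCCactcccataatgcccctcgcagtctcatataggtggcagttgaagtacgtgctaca
Srsf6, chr2:162931258-162931507, plus strand: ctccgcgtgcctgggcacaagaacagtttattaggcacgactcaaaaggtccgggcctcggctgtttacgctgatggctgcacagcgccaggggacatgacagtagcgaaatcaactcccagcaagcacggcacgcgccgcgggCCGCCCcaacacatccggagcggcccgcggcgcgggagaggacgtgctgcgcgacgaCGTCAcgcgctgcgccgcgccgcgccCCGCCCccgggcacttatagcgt
Rbm5, chr9:107771003-107771252, minus strand: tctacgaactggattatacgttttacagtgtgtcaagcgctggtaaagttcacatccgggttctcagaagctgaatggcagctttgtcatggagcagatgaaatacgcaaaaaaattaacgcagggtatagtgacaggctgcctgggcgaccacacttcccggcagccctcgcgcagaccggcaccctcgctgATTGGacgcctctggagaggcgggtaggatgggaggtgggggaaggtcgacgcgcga
Hnrnpk, chr13:58402118-58402367, minus strand: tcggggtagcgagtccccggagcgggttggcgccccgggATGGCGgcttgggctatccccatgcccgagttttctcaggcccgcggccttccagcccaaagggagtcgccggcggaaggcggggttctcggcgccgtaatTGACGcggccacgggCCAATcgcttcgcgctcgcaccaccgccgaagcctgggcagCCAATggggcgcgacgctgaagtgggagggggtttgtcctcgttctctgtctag
Rbm39, chr2:156180239-156180488, minus strand: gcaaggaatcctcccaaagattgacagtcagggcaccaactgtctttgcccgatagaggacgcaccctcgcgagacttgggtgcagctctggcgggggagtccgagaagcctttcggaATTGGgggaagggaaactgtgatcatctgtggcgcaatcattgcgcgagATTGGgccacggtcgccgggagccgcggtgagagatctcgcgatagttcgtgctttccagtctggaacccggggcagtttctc
Sf3b1 holds 2 GC boxes, Srsf6 holds 2 GC boxes and 1 CRE core, and Rbm5 holds 1 CCAAT box. Rbm39 holds 2 CCAAT boxes, and Hnrnpk holds 2 CCAAT boxes, 1 CRE core and 1 YY1 core. A promoter window was found for 75 of the 83 members and for 9882 of all genes tested. The ETS core was in 40% of the member windows and 19% of all windows, the CRE core in 38.7% and 24.1%, the CCAAT box in 50.7% and 35.9%, and the GC box in 56% and 53.1%. The heat shock element was in 4% and 5.43%, the YY1 core in 9.33% and 7.87%, and the TATA box in 9.33% and 9.13%. Among the windows of the 17 fallen members the ETS core was in 6, the CRE core in 7, the CCAAT box in 8 and the heat shock element in 0. These are counts of letters, without a test.

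More of the members were lower than higher in the hypomorph. Of the 83 members, 17 fell and 3 rose, which is 20.5% and 3.61%, beside 8.47% of all genes that fell and 9.76% that rose. Changes were modest: 4 of the 20 members past the threshold changed by at least 1.5-fold, against 978 of the 2260 genes past it in the whole table. The lowest log2 difference was -0.84 (Rbmx) and the highest 0.60 (Rbm47), with a median of -0.09 over the members and -0.05 over all genes. In bulk RNA, fewer cells of a type and less RNA per cell cannot be told apart.

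Genes were called at a Benjamini-Hochberg adjusted p under 0.05 in a limma fit over all genes, and "rose" and "fell" are used for those genes only. Most members had a high signal, with 75 of the 83 at or above the median level of all genes. Among these, 22.7% fell and 2.67% rose, beside 11.4% and 15.6% of all genes at or above that level. All 3 hypomorph arrays lay below all 3 wild-type arrays for 34 members and above them for 9, while for all genes these shares were 22.5% and 18.5%. The 20 members past the threshold are all among those without overlap. The fallen members numbered 7, 5 and 3 without hypomorph replicate 1, 2 and 3, and the risen 1 without hypomorph replicate 2 or 3. When only genes at or above the median level were tested 27 fell, and without wild-type replicates 1 and 2, the arrays of highest spike-in signal, 5 fell. With the spike-in signal as a covariate 0 members passed by limma (4 at an unadjusted p under 0.05), as did 0 of all genes (1149 unadjusted). When probe sets were averaged per gene, 6 of the 20 calls were lost, those of Hnrnph1, Prpf4b, Rbm25, Rbm39, Rbm47 and Srsf6, while 16 members fell and 3 rose.

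**Figure D1:**
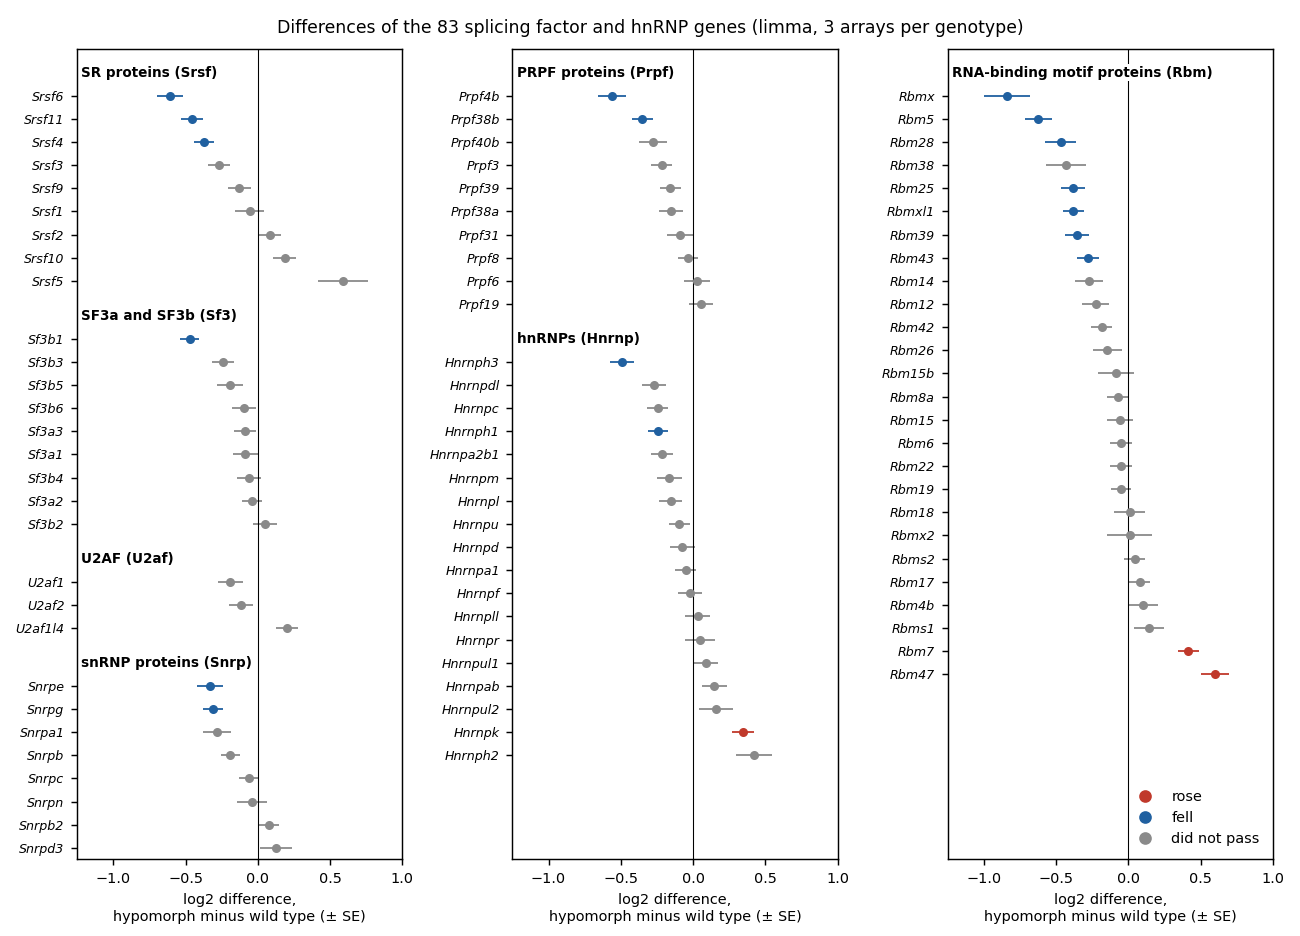
Log2 difference, hypomorph minus wild type, of each of the 83 members by family, with its standard error from limma over 3 arrays per genotype. Blue points fell, red points rose and grey points did not pass. Below 0 lie 59 members and above it 24, beside 7318 and 5075 of all 12393 genes.

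**Figure D2:**
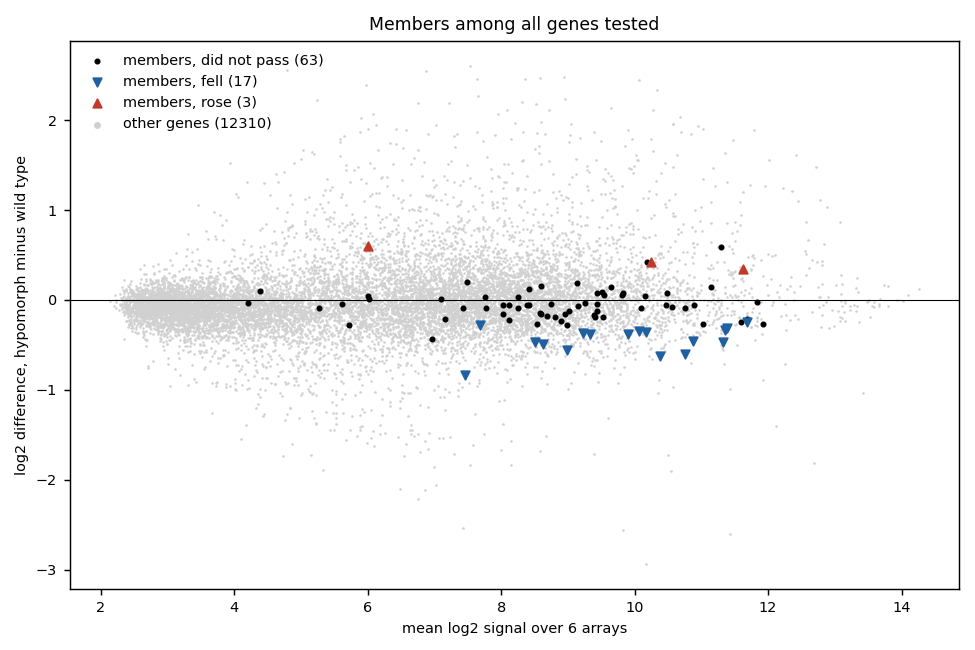
Log2 difference, hypomorph minus wild type, against mean log2 signal over the 6 arrays for all genes tested, with the 83 members marked over the 12310 other genes in grey. The members lie between -0.84 and 0.60, while the other genes reach from -2.93 to 2.61.

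SR proteins bind exonic enhancers and recruit the spliceosome through tails rich in arginine and serine. Of 9 SR genes 3 fell, Srsf6, Srsf11 and Srsf4, and 0 rose by limma (1 at an unadjusted p under 0.05). The fallen share was 33.3%, beside 8.47% of all genes, and the median log2 difference of the family was -0.13.

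Srsf6, an enhancer-binding SR protein gene, was at 11.20, 11.04 and 10.95 in wild type and 10.52, 10.40 and 10.46 in the hypomorph. All hypomorph arrays lay below all wild-type arrays, and the decrease was 1.52-fold (log2 difference -0.61, SE 0.090, limma adjusted p = 0.0068). That is the value of 1 of its 3 probe sets, and the others were higher in the hypomorph, as given further on. Srsf11, an SR-related protein gene, was at 11.20, 11.11 and 11.02 against 10.69, 10.65 and 10.63, again without overlap. It fell 1.37-fold (limma adjusted p = 0.0108), a call lost without hypomorph replicate 2 or 3. Srsf4, a close relative of Srsf6, was at 9.46, 9.36 and 9.42 in wild type and 9.05, 9.06 and 9.02 in the hypomorph, and both groups were tight. It fell 1.29-fold (limma adjusted p = 0.015), a call lost without any 1 hypomorph array.

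The other 6 SR genes did not pass. Srsf5 was at 11.19, 11.25 and 10.59 in wild type and 11.63, 11.58 and 11.58 in the hypomorph, so that wild-type replicate 3 stood below its group (log2 difference 0.59, limma adjusted p = 0.0579). All its hypomorph arrays were higher, and it passed without wild-type replicate 2 or 3. Srsf3, which encodes a small SR protein that also acts in mRNA export, was at 11.16, 11.07 and 11.24 against 10.84, 10.92 and 10.91 (log2 difference -0.27, limma adjusted p = 0.0551). Its hypomorph arrays were all lower, and its 6 probe sets all had differences below 0. Srsf1, a classical regulator of splice-site choice, was at 11.09, 10.75 and 10.91 against 10.81, 10.91 and 10.87, and its groups overlapped (limma adjusted p = 0.74). Srsf2, an SR protein of nuclear speckles, was at 10.42, 10.47 and 10.47 against 10.46, 10.65 and 10.49, also overlapping (limma adjusted p = 0.522). Another of its probe sets fell, as given further on. Srsf10 and Srsf9 had differences of 0.18 and -0.13, the hypomorph arrays of Srsf10 all being higher.

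SF3a and SF3b are the U2 snRNP subcomplexes that hold the branch point, and only Sf3b1 of their 9 genes passed the test. That is a fallen share of 11.1%, near the 8.47% of all genes. Sf3b1, the largest SF3b subunit, which contacts the precursor RNA around the branch point, was at 11.57, 11.58 and 11.56 in wild type and 11.06, 11.12 and 11.12 in the hypomorph. Arrays within each group were close together and the groups were well apart. The decrease was 1.39-fold (log2 difference -0.47, SE 0.067, limma adjusted p = 0.00603), and the call was kept when any 1 array was left out. A second probe set also fell (log2 difference -0.48), and the third, of lower signal, did not pass (0.06).

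The other 8 SF3a and SF3b genes had differences from -0.24 (Sf3b3, limma adjusted p = 0.0714) to 0.05 (Sf3b2). Sf3b3, another SF3b core subunit gene, was at 9.04, 9.02 and 8.98 against 8.85, 8.78 and 8.69, all hypomorph arrays being lower. For U2AF, 0 of 3 genes passed by limma (1 at an unadjusted p under 0.05, U2af1l4). The hypomorph arrays of U2af1l4 were all higher (log2 difference 0.20, limma adjusted p = 0.11). U2af2, the large subunit that binds the polypyrimidine tract, averaged 9.08 ± 0.070 in wild type and 8.96 ± 0.105 in the hypomorph (SD, n = 3 each). The arrays of the 2 groups overlapped (limma adjusted p = 0.382). U2af1, the small subunit that reads the 3′ splice site, was at 9.04, 8.87 and 8.80 against 8.77, 8.69 and 8.69. Its hypomorph arrays were all lower (log2 difference -0.19, limma adjusted p = 0.18).

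The Snrp genes encode the Sm proteins, which form the ring around spliceosomal RNAs, and proteins specific to U1 or U2. Of 8, 2 fell and 0 rose by limma (0 at an unadjusted p under 0.05). Both fallen genes, Snrpg and Snrpe, encode subunits of the Sm ring. Snrpg was at 11.56, 11.51 and 11.58 in wild type and 11.26, 11.25 and 11.20 in the hypomorph. It fell 1.24-fold (limma adjusted p = 0.0242), and its second probe set fell too, with a log2 difference of -0.47 (limma adjusted p = 0.00989 over all probe sets). Snrpe was at 11.64, 11.38 and 11.55 against 11.17, 11.25 and 11.15. It fell 1.26-fold (limma adjusted p = 0.0436) on its only probe set, whose suffix marks probes shared between transcripts, so the source of its signal is uncertain. Leaving out wild-type replicate 3 or any 1 hypomorph array ended both calls, and leaving out wild-type replicate 1 ended that of Snrpe.

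Of the other Sm genes, Snrpb had lower hypomorph arrays throughout (9.52, 9.50 and 9.49 against 9.36, 9.31 and 9.28, limma adjusted p = 0.0967), and Snrpd3 overlapped (log2 difference 0.12). Snrpn, the Sm gene of an imprinted locus, was dim in both groups, at 4.16, 4.28 and 4.23 against 4.02, 4.18 and 4.36. Of the 3 genes specific to U1 or U2, 0 passed by limma (1 at an unadjusted p under 0.05). Snrpa1 and Snrpb2, both of the U2 snRNP, differed by -0.28 and 0.08, and the U1 gene Snrpc by -0.06. The hypomorph arrays of Snrpa1 were all lower and those of Snrpb2 all higher.

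PRPF proteins build and remodel the tri-snRNP and the active spliceosome. Of 10, 2 fell and 0 rose by limma (0 at an unadjusted p under 0.05). Prpf4b, a nuclear kinase that acts on tri-snRNP proteins, was at 9.41, 9.31 and 9.10 in wild type and 8.69, 8.73 and 8.72 in the hypomorph. Wild-type replicate 3 was the lowest of its group but above every hypomorph array. The decrease was 1.48-fold (log2 difference -0.56, SE 0.095, limma adjusted p = 0.0107), and it was not called without hypomorph replicate 3 or with the mean of its 6 probe sets (-0.26, limma adjusted p = 0.0679). Of these probe sets 2 fell and 4 did not pass, with differences from -0.56 to 0.20. Prpf38b, a relative of a tri-snRNP factor, was at 10.20, 10.29 and 10.23 against 9.86, 9.94 and 9.85. It fell 1.27-fold (limma adjusted p = 0.0197) and did so on both of its probe sets, a call lost without any 1 hypomorph array.

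Prpf8, the scaffold at the heart of the spliceosome, was at 9.24, 9.30 and 9.27 in wild type and 9.24, 9.21 and 9.26 in the hypomorph. Its groups overlapped, with a log2 difference of -0.03 (limma adjusted p = 0.762). Prpf3, Prpf39 and Prpf40b had lower hypomorph arrays throughout without passing (-0.22, -0.16 and -0.27). Prpf38a and Prpf31 differed by -0.15 and -0.09, and Prpf6 and the ubiquitin ligase gene Prpf19 by 0.03 and 0.06.

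hnRNPs bind nascent transcripts and often silence exons. Of 18 genes 2 fell and 1 rose (11.1% and 5.56%, beside 8.47% and 9.76% of all genes). The fallen share is near that of all genes, and the median log2 difference was -0.06, beside -0.05. Both fallen genes belong to the hnRNP H and F group, which binds runs of G, while Hnrnph2 and Hnrnpf of that group did not pass. Hnrnph3 was at 8.84, 8.87 and 8.92 in wild type and 8.50, 8.28 and 8.39 in the hypomorph. It fell 1.41-fold (log2 difference -0.49, SE 0.083, limma adjusted p = 0.0106), a call lost without hypomorph replicate 3. Hnrnph1 was at 11.85, 11.81 and 11.78 against 11.55, 11.59 and 11.57. It fell 1.18-fold at the edge of the threshold (limma adjusted p = 0.0493), and the call was lost when any 1 of the 6 arrays was left out and with the mean of its 2 probe sets (-0.12).

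Hnrnpk, a binder of C-rich sequence, rose. Its arrays were at 11.40, 11.51 and 11.43 in wild type and 11.71, 11.84 and 11.81 in the hypomorph, without overlap, a 1.27-fold increase (log2 difference 0.34, SE 0.076, limma adjusted p = 0.0254). Of its 4 probe sets 3 rose, with log2 differences from 0.33 to 0.46. The call of the gene was lost when wild-type replicate 3 or any 1 hypomorph array was left out, and after quantile normalization.

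Hnrnph2, a further H gene, was higher in the hypomorph without passing, at 9.73, 10.03 and 10.17 against 10.30, 10.47 and 10.43 (log2 difference 0.42, limma adjusted p = 0.0578). Hnrnpdl, a relative of the AU-rich element binder hnRNP D, was at 12.09, 12.05 and 12.07 against 11.69, 11.90 and 11.81. All its hypomorph arrays were lower (log2 difference -0.27, limma adjusted p = 0.0603). Hnrnpc and Hnrnpa2b1 also had lower hypomorph arrays throughout (-0.24 and -0.21, limma adjusted p = 0.0546 and 0.0874). Hnrnpa1, an exon-silencing protein gene, was at 10.55, 10.44 and 10.51 against 10.44, 10.46 and 10.44, which overlap. Hnrnpll, known for controlling the splicing of CD45 in lymphocytes, was at 8.14, 8.27 and 8.30 against 8.36, 8.15 and 8.29 (log2 difference 0.03, limma adjusted p = 0.834), and the sign of so small a difference turned without wild-type or hypomorph replicate 1. The remaining 9 hnRNP genes had differences between -0.16 (Hnrnpm) and 0.16 (Hnrnpul2), without passing.

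The RBM genes share a name and an RNA recognition motif rather than a single role. Of 26, 7 fell and 2 rose (26.9% and 7.69%, beside 8.47% and 9.76% of all genes). Among the 16 listed here with a part in the spliceosome or in splicing regulation 5 fell and 1 rose. Among the 10 not so listed, some of which may take part too, 2 fell and 1 rose.

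Rbmx, an X-linked gene for hnRNP G, had the lowest difference of all members. It was at 8.14, 7.86 and 7.62 in wild type and 7.26, 6.96 and 6.88 in the hypomorph. The arrays of both groups were spread widely but did not overlap, and the decrease was 1.79-fold (log2 difference -0.84, SE 0.158, limma adjusted p = 0.0151), a call lost without hypomorph replicate 2 or 3. With the spike-in signal as a covariate the difference was 0.19 (limma adjusted p = 0.854). Of its 4 probe sets another fell (-1.20), and the other 2 differed by 0.03 and 0.04. Rbmxl1, a retrocopy of Rbmx, was at 10.14, 10.01 and 10.12 against 9.72, 9.75 and 9.66. It fell 1.30-fold (limma adjusted p = 0.0173), a call lost without any 1 hypomorph array. The sequences of the pair are alike, so how signal divides between them is uncertain.

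Rbm5, which joins early spliceosomes and influences exons of apoptosis genes, was at 10.74, 10.78 and 10.55 in wild type and 10.18, 9.98 and 10.05 in the hypomorph. It fell 1.54-fold (log2 difference -0.62, SE 0.095, limma adjusted p = 0.00747). The call was kept when any 1 array was left out, but not with wild-type replicate 3 as the only wild-type array (-0.48, limma adjusted p = 0.0519). Its 4 probe sets had differences from -0.88 to -0.62, and 3 of them fell. Its paralog Rbm6 was at 8.10, 8.10 and 7.97 against 7.95, 8.02 and 8.04, with overlapping arrays, and its probe set of lower signal rose (log2 difference 0.44). Rbm25, a partner of the U1 snRNP, was at 9.59, 9.54 and 9.44 against 9.13, 9.22 and 9.07. It fell 1.30-fold (limma adjusted p = 0.0212), a call lost without any 1 hypomorph array and with the mean of its 5 probe sets (-0.21).

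Rbm39, a U2AF-related factor, was at 10.47, 10.35 and 10.23 in wild type and 9.99, 9.98 and 10.02 in the hypomorph on the probe set that stands for it. By that probe set it fell 1.28-fold (limma adjusted p = 0.0315), a call lost when wild-type replicate 2 or any 1 hypomorph array was left out. By the mean of its probe sets it rose (log2 difference 0.64, limma adjusted p = 0.00148), and with the spike-in covariate the difference was 0.03. Rbm28, a nucleolar protein gene, was at 8.92, 8.74 and 8.57 against 8.35, 8.18 and 8.29 and fell 1.38-fold (limma adjusted p = 0.0267). Rbm43 was at 7.85, 7.77 and 7.85 against 7.52, 7.63 and 7.48 and fell 1.21-fold (limma adjusted p = 0.048). The call of Rbm28 was lost without any 1 hypomorph array, and its difference was 0.15 under the spike-in covariate. That of Rbm43 was lost without any 1 of the 6 arrays.

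The risen RBM genes were Rbm47 and Rbm7. Rbm47, a cofactor of APOBEC1 in RNA editing, had a low signal, at 5.85, 5.67 and 5.58 in wild type and 6.40, 6.22 and 6.28 in the hypomorph. It rose 1.52-fold (log2 difference 0.60, SE 0.097, limma adjusted p = 0.00916). The call was kept when any 1 array was left out, but not with the mean of its 2 probe sets (0.29, limma adjusted p = 0.0514), the second of which had means of 2.95 and 2.94 in the groups. Rbm7, a subunit of the complex that hands nuclear transcripts to the exosome, was at 10.01, 10.04 and 10.05 against 10.40, 10.53 and 10.42. It rose 1.33-fold (limma adjusted p = 0.0116) on a single probe set of the shared kind, a call lost without hypomorph replicate 2 or 3. The other 17 RBM genes did not pass and ran from -0.43 (Rbm38) to 0.14 (Rbms1). Of these, Rbm38, Rbm14 and Rbm42 had lower hypomorph arrays throughout, and Rbm17 had higher ones throughout (0.08).

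**Figure D3:**
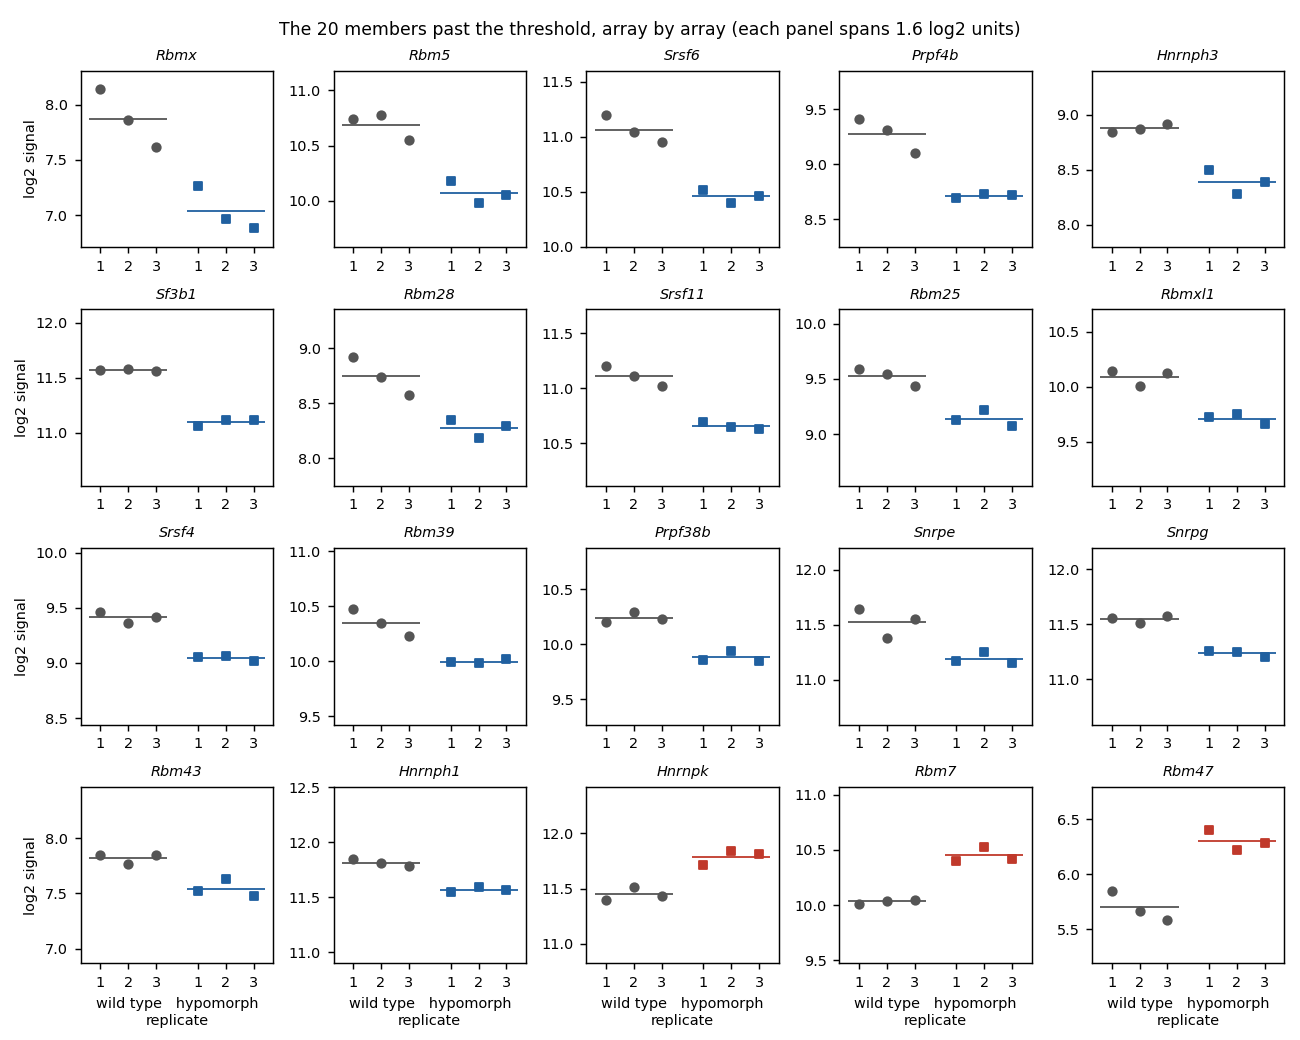
Log2 signal of the 20 members past the threshold on each array, with wild-type arrays as grey circles, hypomorph arrays as squares and lines at the group means. Blue squares mark the 17 fallen and red squares the 3 risen members, and the groups do not overlap in any panel.

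Wild-type replicate 1 was the highest wild-type array for 11 of the 17 fallen members, and wild-type replicate 3 the lowest for 10. The shares over all genes were not counted. The mean of these 17 was 10.16, 10.08 and 10.03 in wild-type replicates 1, 2 and 3 and 9.68, 9.65 and 9.62 in the hypomorph. The poly-A spike-in mean had the same order in wild type, at 9.96, 9.53 and 8.95, as did the hybridization controls, at 11.64, 11.31 and 11.08, and the beta-actin 3′ minus 5′ difference, at 1.02, 0.96 and 0.94. The heat shock mean had the reverse order, at 9.98, 10.94 and 11.06. The mean of all 83 members was 9.11, 9.10 and 9.12 on these arrays, without the order of the fallen members. The part of the spike-ins, the hybridization controls, the actin difference and the heat shock genes in the decrease was not tested. Per member, the median SD came to 0.081 among wild-type arrays and 0.057 among hypomorph arrays, beside 0.142 and 0.089 over all genes. At or above the median level it was 0.079 and 0.053 for members, beside 0.117 and 0.066 for all genes there.

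Probe sets of the same gene did not always move together. The 83 members have 201 probe sets, of which 31 fell and 18 rose when all probe sets were tested singly, or 15.4% and 8.96%, beside 7.73% and 9.95% of all single-gene probe sets. Of the 51 members with several probe sets, 24 had all differences on the same side of 0 and 27 on both. For 3 of them, Rbm39, Srsf6 and Hnrnpab, probe sets passed in opposite directions (5.88%, beside 0.747% of all genes with several probe sets). A gene with more probe sets has more chances to do so. Of the 14 called members with several probe sets, 7 had another one called in the same direction. For this count and that of differences on 1 or both sides of 0, the shares over all genes were not counted.

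Rbm39 has 9 probe sets, of which 7 rose, 1 fell and 1 did not pass. The strongest rise was on probe set 1446147_at, at 7.58, 7.70 and 7.80 in wild type and 9.18, 9.22 and 9.22 in the hypomorph, a 2.86-fold increase (log2 difference 1.51, SE 0.083, limma adjusted p = 0.000719 over all probe sets). The hypomorph arrays were close together and far above wild type. The platform annotation ties that probe set and 1446148_x_at (1.44) to 1 sequence record, and 3 further probe sets to another, with differences of 0.42 to 0.74. For 2 more (0.76 and 0.82) no record is listed. The probe set tied to a RefSeq transcript, 1420982_at, differed by -0.17 (limma adjusted p = 0.264), and 1426671_a_at, of yet another record, fell (-0.36). Where the probe sets lie in the gene is not given in the sources used here.

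Srsf6 has 3 probe sets tied to the same record. The one of highest mean, 1448454_at, fell as given above. The shared-kind probe set 1416721_s_at was at 9.49, 9.40 and 9.28 in wild type and 9.69, 9.74 and 9.72 in the hypomorph, and rose 1.25-fold (limma adjusted p = 0.0353 over all probe sets). The third, 1416720_at, was at 7.74, 7.68 and 7.83 against 7.89, 8.16 and 8.05 and did not pass (log2 difference 0.28, limma adjusted p = 0.0844). Averaged over its probe sets, the log2 difference of Srsf6 was 0.00 (limma adjusted p = 0.987).

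Hnrnpab, an AU-rich RNA binder, did not pass on its chosen probe set (11.01, 11.01 and 11.18 against 11.10, 11.28 and 11.28), which is 1 of 7. Probe set 1426114_at was at 11.31, 11.07 and 11.09 in wild type and 10.16, 10.29 and 10.31 in the hypomorph, and fell 1.87-fold (limma adjusted p = 0.00193 over all probe sets). In contrast, 1448144_at rose 1.55-fold, from 6.61, 7.04 and 7.13 to 7.51, 7.59 and 7.59, and the dim 1459880_at rose 1.44-fold. In wild type the mean of 1426114_at, 11.16, was above the 11.07 of the chosen probe set. In the hypomorph it was below, at 10.26 against 11.22, which decided the choice.

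Further members that did not pass on their chosen probe set had another that did. Across all members this happened with a fallen probe set in 7 and with a risen one in 4. How often it happens over all genes was not counted, and more probe sets give more chances. Srsf2 fell on 1452439_s_at, at 10.81, 10.71 and 10.73 in wild type and 10.26, 10.19 and 10.14 in the hypomorph (1.47-fold, limma adjusted p = 0.00489). Its other 3 probe sets did not pass. In wild type the mean of 1452439_s_at, 10.75, was above the 10.45 of the chosen probe set. In the hypomorph it was below, at 10.20 against 10.53, which decided the choice. Hnrnpdl fell on 2 of 6, with 1424252_at at 10.47, 10.33 and 10.33 against 9.68, 9.70 and 9.68 (1.61-fold). Hnrnpu, the scaffold attachment factor gene, fell 2.23-fold on 1434390_at (8.32, 7.66 and 7.37 against 6.76, 6.59 and 6.53), and its 3 probe sets of highest signal differed by -0.09 to -0.08. Hnrnpc rose on 1418693_at, from 7.31, 7.62 and 7.72 to 8.07, 7.98 and 7.98, opposite in sign to its chosen probe set.

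**Figure D4:**
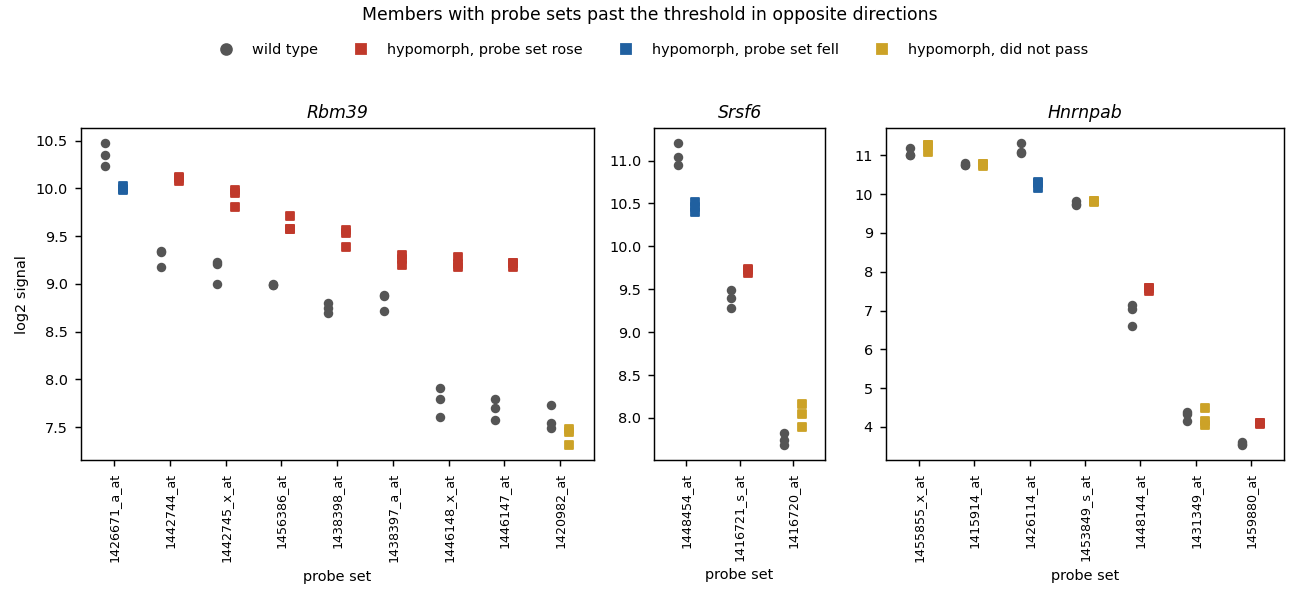
Log2 signal on each array for every probe set of Rbm39, Srsf6 and Hnrnpab, with wild type as grey circles and the hypomorph as squares, red where the probe set rose, blue where it fell and yellow where it did not pass. For Rbm39, 7 of the 9 probe sets stand higher in the hypomorph and the brightest stands lower. Levels of different probe sets are not comparable.

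Other genes of splicing and of related RNA steps, among them nonsense-mediated decay, were taken from 6 lists of 203 genes that hold no members. Of the 155 measured, 30 fell and 5 rose, or 19.4% and 3.23%, beside 8.47% and 9.76% of all genes. Their median log2 difference was -0.12. Without hypomorph replicate 1, 2 and 3 the fallen genes numbered 14, 7 and 4. The risen numbered 1 when wild-type replicate 2 or any 1 hypomorph array was left out. They numbered 2 without wild-type replicate 1 and 3 without wild-type replicate 3. Of the genes named below, Srpk3, Snrnp48, Tardbp and Prmt5 are read from s probe sets, and Ewsr1 and Ddx39b from x probe sets. Such probes can be shared with other transcripts, so the source of their signal is uncertain.

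Of 27 measured kinases of SR proteins and SR-related proteins, 10 fell and 0 rose by limma (0 at an unadjusted p under 0.05), with a median of -0.18. Without hypomorph replicate 1, 2 and 3 the fallen numbered 5, 1 and 1, and with 1 wild-type array 0 by limma (10 at an unadjusted p under 0.05). CLK kinases phosphorylate SR proteins in the nucleus, and Clk1 was at 11.72, 11.61 and 11.50 in wild type and 11.16, 11.05 and 10.93 in the hypomorph (1.47-fold lower, limma adjusted p = 0.0112), without overlap. Clk2, Clk3 and Clk4, named here after their values were seen, fell 1.41-fold, 1.31-fold and 1.51-fold, and under the spike-in covariate their differences were 0.05, 0.14 and 0.27. Those 3 calls were lost without any 1 hypomorph array, and that of Clk3 also without wild-type replicate 1 or 2. Son, a nuclear speckle protein gene, was at 11.68, 11.65 and 11.41 against 11.09, 11.02 and 11.04, a 1.44-fold decrease. Srpk3, an SR protein kinase gene, was at 6.71, 6.94 and 6.86 against 5.86, 6.34 and 6.05 and fell 1.68-fold. The calls of Clk1 and Son were lost without hypomorph replicate 2 or 3, and that of Srpk3 without hypomorph replicate 3.

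Among 33 other U snRNP and LSm genes 7 fell and 2 rose. Without hypomorph replicate 1, 2 and 3 the fallen numbered 3, 2 and 2, and leaving out any 1 array left 0 to 1 risen. Luc7l3, a U1-associated protein gene, was at 10.55, 10.12 and 9.98 in wild type and 9.38, 9.30 and 9.19 in the hypomorph (1.90-fold lower), with a difference of 0.04 under the spike-in covariate. Snrnp48, a minor spliceosome gene, averaged 8.92 ± 0.111 against 8.17 ± 0.064 (SD, n = 3 each; 1.68-fold lower, limma adjusted p = 0.00289). Ddx46, a helicase gene of the U2 step, fell 1.32-fold. The U7 snRNP gene Lsm10 and the SMN-related gene Smndc1 rose 1.24-fold and 1.35-fold, and the difference of Smndc1 was -0.16 under that covariate. The call of Lsm10 was lost without wild-type replicate 2 or 3 and that of Smndc1 without wild-type replicate 1 or 2, both also without any 1 hypomorph array, while those of Luc7l3 and Snrnp48 were kept when any 1 array was left out. That of Ddx46 was lost without hypomorph replicate 2 or 3.

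Among 42 other hnRNP-like and tissue regulators 7 fell and 1 rose, and without hypomorph replicate 1, 2 and 3 the fallen numbered 5, 3 and 1. The risen gene was Cirbp, the cold-inducible RNA-binding protein gene, at 5.97, 6.52 and 6.67 in wild type and 7.41, 7.90 and 7.70 in the hypomorph. All hypomorph arrays were higher, a 2.43-fold increase (log2 difference 1.28, SE 0.205, limma adjusted p = 0.00898), which was -0.05 under the spike-in covariate. Tardbp, which encodes TDP-43, was at 9.70, 9.60 and 9.82 against 9.13, 8.88 and 8.93 (1.65-fold lower). Ewsr1 and Celf4 fell 1.33-fold and 1.72-fold, Celf4 from a low signal. The calls of Cirbp and Tardbp were kept when any 1 array was left out, and those of Ewsr1 and Celf4 were lost without hypomorph replicate 3.

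Of 36 genes of the PRP19 complex, the catalytic steps and the exon junction 4 fell and 0 rose by limma (2 at an unadjusted p under 0.05). The fallen share was 11.1%, near the 8.47% of all genes. Ddx39b, an mRNA export helicase gene, was at 10.91, 10.83 and 10.77 against 10.42, 10.38 and 10.36, and Ddx41 and Dhx16 fell 1.26-fold and 1.30-fold. Leaving out any 1 array left 0 to 3 fallen, and the call of Ddx39b was lost without hypomorph replicate 3, those of Ddx41 and Dhx16 when any 1 hypomorph array or wild-type replicate 2 was left out, and that of Dhx16 also without wild-type replicate 1. Of 12 genes for making snRNPs, Sm ring assembly included, 2 rose, Smn1 (1.32-fold) and Phax (1.23-fold), and 1 fell, Prmt5 (1.23-fold). That is 16.7% and 8.33%, beside 9.76% and 8.47% of all genes. Of 5 nonsense-mediated decay genes 1 fell, Upf2 (1.26-fold), and 0 rose by limma (0 at an unadjusted p under 0.05). The calls of Smn1, Phax, Prmt5 and Upf2 were lost when any 1 hypomorph array or wild-type replicate 2 was left out, those of Smn1 and Phax also without wild-type replicate 1, and those of Phax, Prmt5 and Upf2 also without wild-type replicate 3.

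**Figure D5:**
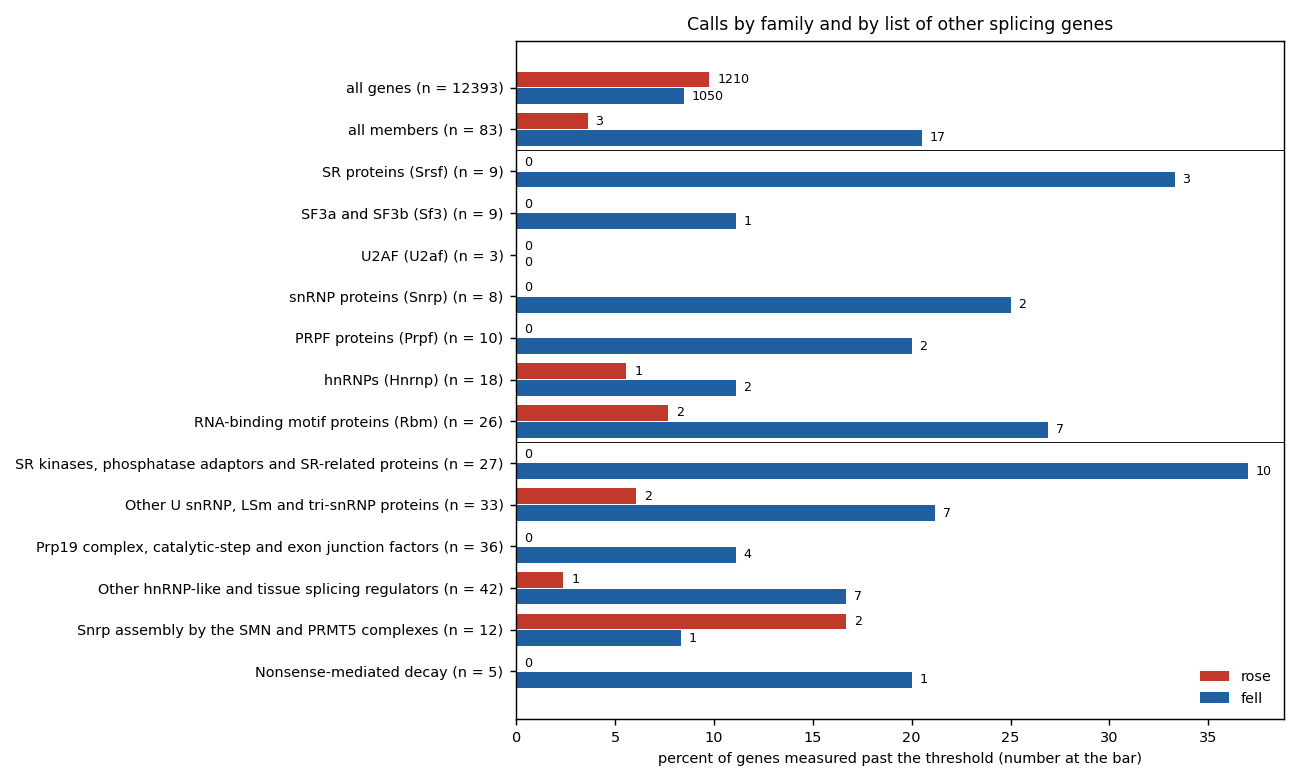
Percent of measured genes that rose (red) and fell (blue) by limma, with the number of genes at each bar. Bars are for all genes, the members, each family and the 6 lists of genes for splicing and related RNA steps. In the members 20.5% fell and 3.61% rose, and in all genes 8.47% fell and 9.76% rose.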

How the data were processed

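The authors deposited 1 value per probe set and array, and the submitters' processing notes name Affymetrix Power Tools. No label states the scale. The deposited values are taken as log2 from their range, and their medians are alike on all arrays; how they were normalized is not given in the sources used here. Of 22690 probe sets, 64 controls and 1 without values were left out; 20379 name 1 gene, 691 several and 1555 none in the platform annotation. The single-gene probe sets cover 12393 genes, and 20350 of these probe sets had a gene ID found in the RefSeq table. The probe set of highest mean stood for a gene.

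Wild-type and hypomorph arrays (3 each) were compared with limma 3.58.1 (lmFit and eBayes) in R 4.3.3, with Benjamini-Hochberg adjustment over all genes and a threshold of 0.05; a second fit used all single-gene probe sets. Tables and figures used Python 3.11.15, pandas 2.3.3 and matplotlib 3.10.9. The fit was tested on simulated data. With 3 arrays against 3 an exact permutation test cannot go below 0.1.

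The members and lists were chosen with earlier results of these data known. Values on every array are given for up to 4 called members of smallest p in each direction and family, the brightest member of each family, members with probe sets called in opposite directions and a set list of well-known members; for other lists, up to 3 genes of smallest p in each direction. Further members are described where they add to a family. Alternatives were quantile normalization, array weights, centring on array medians, trend and robust eBayes, a replicate block, dropping each array in turn, averaging probe sets, dropping x and s probe sets, and testing only genes above the median or the lower quartile of signal. Added after seeing the data were the spike-in covariate and the fit that keeps 1 wild-type array.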

Additional observations from a re-analysis of the deposited data

How the results depend on the processing

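Leaving out 1 array gave 1 to 4 risen and 3 to 17 fallen members, and 550 to 1184 and 192 to 1088 of all genes. It gave 1 to 3 risen and 4 to 28 fallen genes of the other lists together. Of member probe sets, 8 to 18 rose and 10 to 33 fell. By family it gave 0 to 1 risen and 1 to 4 fallen Srsf genes, 0 to 3 fallen Snrp, 0 to 2 fallen Prpf, 0 to 1 risen and 0 to 1 fallen Hnrnp, and 1 to 2 risen and 1 to 6 fallen Rbm genes. No called member changed sign when an array was left out.

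The filter at the median level gave 5 risen and 27 fallen members (1 risen Srsf, 2 fallen Sf3, 1 risen U2af, 4 fallen Snrp, 2 risen and 5 fallen Hnrnp, 1 risen Rbm), 8 risen list genes and 50 fallen probe sets, with fewer genes tested. The filter at the lower quartile gave 5 risen members (1 Srsf, 2 Hnrnp), 2 fallen Sf3 and 4 fallen Hnrnp genes. Array weights gave 5 risen members, 1 Srsf and 2 Hnrnp among them. Quantile normalization gave 2 risen and 24 fallen members, 2 fallen Sf3, 0 risen and 5 fallen Hnrnp genes, 3 risen list genes and 48 fallen probe sets, with a median of -0.174 over members and -0.020 over all genes. Trend and robust eBayes gave 2 fallen Sf3, 4 fallen Snrp, 2 risen and 5 fallen Hnrnp genes and 48 fallen probe sets. Without x and s probe sets 1 Snrp and 1 Hnrnp fell and 1 Rbm rose. Centring on array medians left 1 fallen Snrp and 1 fallen Hnrnp gene. The mean of probe sets gave 4 fallen Hnrnp genes and lost 6 of the 20 member calls, while the replicate block lost 11, 1 wild-type array 14, the spike-in covariate 20 and leaving out hypomorph replicate 1, 2 and 3 11, 14 and 16. The causes were not tested.

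Replicate numbers are shared by the groups, but same-numbered arrays did not deviate together in every pair (r = 0.153, 0.011 and 0.106), and wild-type replicate 2 went best with hypomorph replicate 3, so the numbers were not taken as pairs. The replicate block gave 2 risen and 8 fallen members, 753 and 478 of all genes, 1 and 19 list genes, and by family 0 fallen Snrp, 1 Prpf, 1 Hnrnp and 3 Rbm genes and 0 risen Hnrnp genes.

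In the fit with 1 wild-type array, which is assumed to vary like the others, 2 members rose and 5 fell (1 risen and 1 fallen Srsf, 0 fallen Snrp, 1 Prpf, 0 risen and 1 fallen Hnrnp, 1 risen and 1 fallen Rbm), with 609 fallen of all genes, 1 risen and 6 fallen list genes and 13 fallen probe sets. With the spike-in covariate limma called 0 members (4 at an unadjusted p under 0.05), 0 genes, 0 list genes and 0 probe sets, and Atg16l1, at -0.91, was not called. The median SE was 0.290 there and 0.104 in the fit without the covariate. Genotype and spike-in signal can hardly be told apart there, so the signs of differences under the covariate are uncertain.

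Differences turned with that covariate for the called members Rbmx (0.19), Rbm39 (0.03) and Rbm28 (0.15), and for Hnrnpab (-0.24), Srsf1 (0.14), Srsf2 (-0.06), U2af1 (0.24), Hnrnpll (-0.12), Smndc1 (-0.16), Luc7l3 (0.04), Cirbp (-0.05), Clk2 (0.05), Clk3 (0.14), Clk4 (0.27), Ciita (0.06) and Cd8b1 (-0.07). With the mean of probe sets Srsf6 went to 0.00, Rbm39 to 0.64, Srsf2 to -0.09 and Hnrnpll to -0.13. Small differences that did not pass also turned for Hnrnpab (-0.01 without x and s probe sets), Srsf2 (-0.02) and Snrpn (0.06) after quantile normalization, Hnrnpll (-0.01 with array weights, -0.03 with 1 wild-type array, -0.02 and -0.02 without wild-type or hypomorph replicate 1), Srsf1 (0.03 without wild-type replicate 1) and Snrpn (0.04 without hypomorph replicate 1). Over leaving out each array, the difference ran from -0.14 to 0.03 for Srsf1, -0.02 to 0.09 for Hnrnpll and -0.12 to 0.04 for Snrpn.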

Other observations

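Probe sets that name several genes, at least 1 of them of the splicing families, were left out of the tests above. There are 21 of them, and they hold 9 symbols with no probe set of their own. All 3 hypomorph arrays lay lower on 9 of them and higher on 2. Over all genes tested, they lay lower for 22.5% and higher for 18.5%. The log2 differences of the 21 probe sets ran from -0.54 to 0.33, with a median of -0.16.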
